A study of Mus musculus with 32 samples.

Results

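Uridine and pyrimidine breakdown was followed in mouse liver through 5 genes, Upp2, Dpyd, Dpys, Upb1 and Agxt2. They were taken by symbol from the 55471 genes of the deposited count table, all 5 were found, and all 5 were among the 14456 genes with enough reads to test. Upp2 was chosen by its measured photoperiod by time interaction and its 24 h rhythm in these same libraries, so its values over time of day are a description without a test. The other 4 genes were selected on their place in the same pathway, with earlier results of these data known. The livers came from 32 male C3H/HeNCrl mice, an inbred strain, all fed a high fat diet (HFD). In the short light group (SL) 16 mice were sampled at zeitgeber time (ZT, the hour on the light schedule) 0, 6, 12 and 18, 4 mice at each time. In the long light group (LL) 16 mice were sampled at the same 4 times, again 4 at each. The hours of light per day, the age of the mice and the length of the feeding are not stated in the labels. Polyadenylated RNA was sequenced, and levels are given as CPM, the usual read count of a gene scaled to library size.

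Uridine phosphorylase, made from Upp2 in liver and from Upp1 mainly elsewhere, splits uridine into uracil and ribose 1-phosphate. Dihydropyrimidine dehydrogenase (Dpyd) reduces uracil and thymine, dihydropyrimidinase (Dpys) opens the reduced ring, and beta-ureidopropionase (Upb1) releases beta-alanine or beta-aminoisobutyrate. Agxt2 is a mitochondrial aminotransferase that uses beta-aminoisobutyrate and also dimethylarginines. The liver is known both as a source of plasma uridine and as the main site of its breakdown.

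Total counts per library were 9095615 to 27462776, with a median of 15665632.5. The summed level of 8 hepatocyte markers was 108000 to 139000 CPM in all libraries. None of 5 adipocyte markers passed the filter on low counts, and 3 of 5 kidney tubule markers were at 0 in all libraries. The mean correlation of log2 CPM with the other libraries of a group was 0.981 to 0.989 for 31 libraries and 0.969 for LL ZT12 replicate 3. That library also held 63.5 CPM of summed cholangiocyte markers, against 36.9 to 42 in the other 3 libraries of its group. Values without it are given below for several of the genes whose tests or waves it changed. The summed level of 7 skeletal muscle markers was at 0.735 to 30.2 CPM in SL ZT18 livers, against 9.95 to 193 CPM in LL ZT18 livers. It also reached 17 CPM in SL ZT0 livers, 89.7 CPM in LL ZT0 livers and 22.6 CPM in LL ZT6 livers. The sum of 5 sinusoidal endothelial markers did not overlap at ZT0, with 223 to 250 CPM in SL livers against 271 to 302 CPM in LL livers, nor at ZT12, with 258 to 301 CPM in SL livers against 194 to 244 CPM in LL livers. At ZT12 the sum of 6 Kupffer cell markers was 266 to 313 CPM in SL livers, against 210 to 257 CPM in LL livers. The part of these markers in the results was not tested.

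Upp2 (ENSMUSG00000026839) lies on chromosome 2 from 58567298 to 58792971, plus strand, in the GENCODE M21 annotation of GRCm38. RefSeq (GRCm38.p6) gives it 2 start sites far apart, and the 300 bases around each are printed because Upp2 carries the difference described here and its counts do not tell the starts apart. Capitals mark AGGTCA, a motif bound by nuclear receptors that include the REV-ERB and ROR clock receptors.
Upp2 first start, chr2:58567084-58567383, plus strand: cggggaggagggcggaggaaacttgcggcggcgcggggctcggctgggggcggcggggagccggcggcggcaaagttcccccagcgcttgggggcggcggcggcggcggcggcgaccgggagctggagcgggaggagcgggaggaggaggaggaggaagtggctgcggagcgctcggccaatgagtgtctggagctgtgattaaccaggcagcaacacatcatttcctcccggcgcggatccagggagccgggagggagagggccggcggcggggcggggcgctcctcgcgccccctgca
Upp2 second start, chr2:58754934-58755233, plus strand: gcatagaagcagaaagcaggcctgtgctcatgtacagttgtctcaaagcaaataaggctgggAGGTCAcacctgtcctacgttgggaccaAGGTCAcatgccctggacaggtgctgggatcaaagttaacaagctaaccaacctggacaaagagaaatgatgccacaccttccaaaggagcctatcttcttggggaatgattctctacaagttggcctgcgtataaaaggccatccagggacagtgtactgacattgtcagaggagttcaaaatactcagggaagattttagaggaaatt
The window at the first start had 75.3% G and C, and the window at the second start had 47.0%. AGGTCA was searched on both strands, as were CACGTG, the E-box of CLOCK and BMAL1, and TTATGTAA and TTACGTAA, forms of the D-box of DBP, TEF and HLF. The second window held AGGTCA at 188 and at 160 bases before the start, both on the plus strand, and none of the other motifs. The first window held none of the 4. Of 32851 RefSeq promoters of the same length, 16.3% held AGGTCA at least once and 1.81% at least 2 times, 7.15% held CACGTG, 0.938% TTATGTAA and 0.119% TTACGTAA. Windows were found for 4 of the 5 genes, 6 windows in all. The single windows of Dpyd and Upb1 held none of the motifs, and the overlapping pair for Agxt2 held AGGTCA once on the minus strand. Of the motifs searched, TTACGTAA and CACGTG read the same on both strands, and none of the 4 overlapped another in these windows. These matches describe letters and not binding.

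In SL livers Upp2 was high at ZT0 and ZT6 and low at ZT12 and ZT18, and in LL livers it was low at ZT0 and ZT6 and high at ZT12 and ZT18. At ZT0 it measured 764, 786, 610 and 656 CPM in the SL livers, against 115, 140, 169 and 141 CPM in the LL livers. At ZT6 it measured 668, 870, 633 and 824 CPM in the SL livers, against 227, 140, 163 and 177 CPM in the LL livers. At both times every SL liver lay above every LL liver. At ZT12 it measured 197, 117, 134 and 156 CPM in the SL livers, against 865, 813, 1060 and 724 CPM in the LL livers. At ZT18 it measured 171, 101, 142 and 88.5 CPM in the SL livers, against 379, 379, 567 and 501 CPM in the LL livers. At these later times the order was turned round, and again the groups did not overlap. The lowest of the 32 livers was SL ZT18 replicate 4 and the highest was LL ZT12 replicate 3. Reads behind these values numbered 1425 to 23585 per library, so counting error was small beside the spread between mice. That spread, pooled over the groups, was 19.6% of the mean over all 32 livers.

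**Figure D1:**
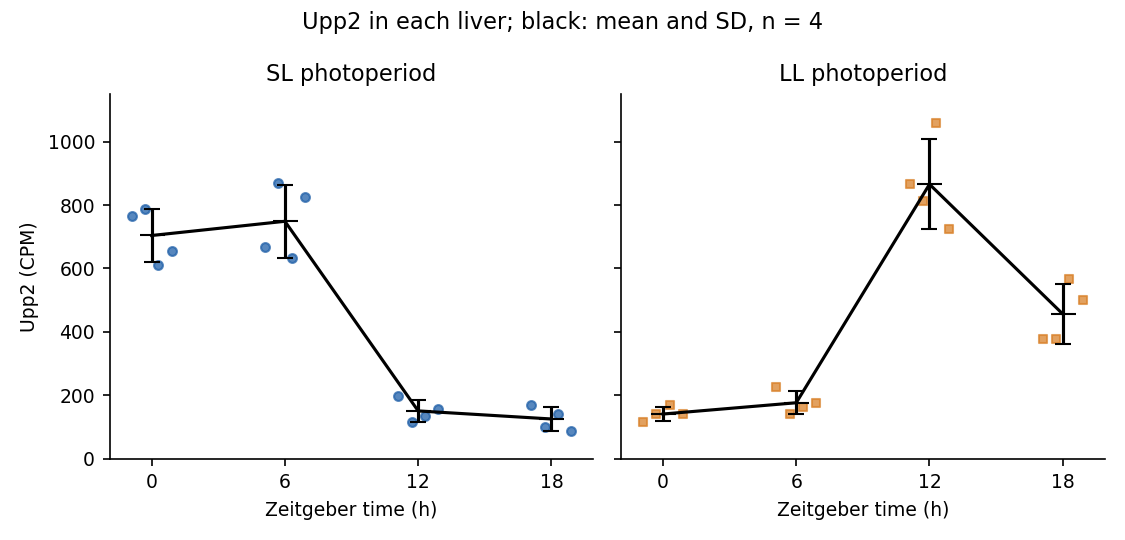
Upp2 level in CPM (vertical axis) against zeitgeber time in h, with SL livers on the left and LL livers on the right; each point is 1 liver and the black line joins group means with SD (n = 4). In SL the means were 704 and 749 CPM at ZT0 and ZT6 and 151 and 126 CPM at ZT12 and ZT18, whereas in LL they were 141, 177, 866 and 456 CPM in the same order of times.

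As group means, Upp2 stood at 704 ± 84.5 CPM in SL livers and 141 ± 22.1 CPM in LL livers at ZT0 (SD, n = 4 each), a log2 difference of 2.32 ± 0.20 (SE). At ZT6 the means were 749 ± 116 CPM in SL livers and 177 ± 36.6 CPM in LL livers, a log2 difference of 2.08 ± 0.19. SL therefore held 4.99 times the LL level at ZT0 and 4.24 times at ZT6 in the fit. At ZT12 the means were 151 ± 34.6 CPM in SL livers and 866 ± 144 CPM in LL livers, a log2 difference of -2.52 ± 0.20. At ZT18 they were 126 ± 37.9 CPM in SL livers and 456 ± 93.3 CPM in LL livers, a log2 difference of -1.86 ± 0.19. The SL to LL ratio was 0.174 at ZT12 and 0.275 at ZT18. In single comparisons at these times 11% of all tested genes were called at ZT0, 15.3% at ZT6, 12.4% at ZT12 and 9.21% at ZT18 (adjusted p under 0.05, edgeR), shares from which nothing is read for Upp2 because it was chosen on this contrast.

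The order of the 8 group means was LL ZT12, SL ZT6, SL ZT0, LL ZT18, LL ZT6, SL ZT12, LL ZT0 and SL ZT18. Neighbours in this order overlapped among the 3 highest groups and among the 4 lowest. LL ZT18 stood between them on its own. The lowest SL ZT0 liver, at 610 CPM, was above the highest LL ZT18 liver, at 567 CPM, and the lowest LL ZT18 liver, at 379 CPM, was above the highest LL ZT6 liver, at 227 CPM. The highest group held 6.9 times the level of the lowest. Within SL that ratio was 5.96 and within LL 6.14.

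The steps between sampling times had different shapes under SL and LL. In SL the level at ZT12 was 0.201 times that at ZT6, and the level at ZT0 was 5.61 times that at ZT18, while the ZT0 and ZT6 livers overlapped and so did the ZT12 and ZT18 livers. In LL the level at ZT12 was 4.9 times that at ZT6. From there it was 0.527 times as high at ZT18, and from ZT18 to ZT0 it was 0.309 times as high, each without overlap. SL showed 2 high and 2 low times at similar levels, and LL a single highest time with an intermediate value 6 h later.

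A 24 h wave through the group means of log2 CPM had an amplitude (from middle to top) of 1.72 ± 0.11 in SL and 1.48 ± 0.09 in LL, with peaks at 3.29 ± 0.24 h and 13.8 ± 0.24 h (SE). The SL peak lay 10.5 ± 0.34 h before the LL peak. These amplitudes ranked 25th in SL and 46th in LL among the 14456 tested genes, whose median amplitudes were 0.144 and 0.152. Sampling 6 h apart does not separate a sharp peak from a broad wave, and the peak hours are those of the fitted wave. Without LL ZT12 replicate 3 the LL amplitude was 1.44, the peak shift -10.6 h, the LL ZT12 mean 801 ± 72 CPM (SD, n = 3) and the ratio of the highest to the lowest group 6.4.

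Set 12 h apart, the 2 photoperiods gave Upp2 levels that were closer but not equal. SL ZT0 had 0.812 times the level of LL ZT12, SL ZT12 had 1.07 times that of LL ZT0, and SL ZT18 had 0.71 times that of LL ZT6, with overlapping livers in each pair. SL ZT6 had 1.64 times the level of LL ZT18, at 749 ± 116 CPM against 456 ± 93.3 CPM (SD, n = 4 each), without overlap. Over all genes, 0.519% were called for an interaction when LL was taken 12 h later (75 of 14456, edgeR).

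Averaged over the 4 times, Upp2 did not differ detectably between SL and LL. This is the contrast by which it was not chosen, and it can be tested. The mean was 432 CPM over the 16 SL livers and 410 CPM over the 16 LL livers. The log2 difference of the 4 group means was 0.00, with a 95% interval of -0.19 to 0.20 and an adjusted p of 1 (edgeR). That interval allows SL to hold 0.878 to 1.15 times the LL level. The background of this contrast was 0% of tested genes called by edgeR, with 730 genes at an unadjusted p under 0.05, 6 genes called by DESeq2, and 0 by limma-voom and by limma on the authors' log2 values.

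Of the other enzymes that split pyrimidine nucleosides, thymidine phosphorylase (Tymp) had a time course nearly opposite to that of Upp2, while Upp1 was scarce. Upp1 averaged 1.58 CPM over all livers, and its group means lay between 1.2 and 2.24 CPM. The 2 genes were also compared per length of all annotated exons as well as library size (RPKM). Upp2 exceeded Upp1 by 119, 84.4, 21.4 and 25.2 times at ZT0, ZT6, ZT12 and ZT18 in SL. In LL it exceeded Upp1 by 29.7, 36, 110 and 82.4 times at the same times. These ratios depend on lengths that may include exons not used in liver. Upp1 at ZT6 measured 2.24 ± 0.97 CPM in SL livers and 1.24 ± 0.13 CPM in LL livers, a log2 difference of 0.83 ± 0.27 (adjusted p = 0.037, edgeR). That call was lost in 11 of 41 alternatives, among them limma-voom (0.0719), limma on the authors' log2 values (0.0842), and the fits without SL ZT6 replicate 1 or 3 or any single LL ZT6 replicate (0.0562 to 0.186). The interaction of Upp1 did not pass the test (adjusted p = 0.117, edgeR), though it did without SL ZT6 replicate 4 (0.0465) or LL ZT18 replicate 3 (0.0404).

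Tymp (ENSMUSG00000022615, chromosome 15 from 89371931 to 89377039, minus strand) measured 63.6, 67.9, 50.8 and 53.3 CPM at ZT0 in SL livers, against 146, 125, 146 and 143 CPM in LL livers. At ZT12 it measured 125, 152, 130 and 124 CPM in SL livers, against 41.1, 53.4, 46.4 and 42.4 CPM in LL livers. The groups did not overlap at either time. Its log2 difference was -1.25 ± 0.15 at ZT0 (adjusted p = 5.42e-07) and 1.53 ± 0.15 at ZT12 (adjusted p = 1.28e-08, edgeR), and its wave peaked at 14.7 h under SL and 0.057 h under LL. At ZT6 and ZT18 the log2 differences were smaller, at -0.48 ± 0.15 and 0.51 ± 0.15 (adjusted p of 0.022 and 0.0215, edgeR). Those calls were lost in 6 alternatives at ZT6 and in 4 at ZT18. Tymp shares 856 exon bases with Sco2 on the same strand and 535 with Ncaph2 on the other, so reads of these genes may be mixed in its count. The thymidine kinase gene Tk1, which acts on the salvage side, had its highest SL mean at ZT6 and its highest LL mean at ZT12. Its log2 difference was 0.84 ± 0.17 at ZT0, 1.56 ± 0.17 at ZT6, -0.97 ± 0.16 at ZT12 and -1.63 ± 0.17 at ZT18, each called (adjusted p of 0.000818, 7.52e-08, 8.81e-05 and 8.41e-08, edgeR). Tk1 shares 83 exon bases with Afmid on the opposite strand.

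**Figure D2:**
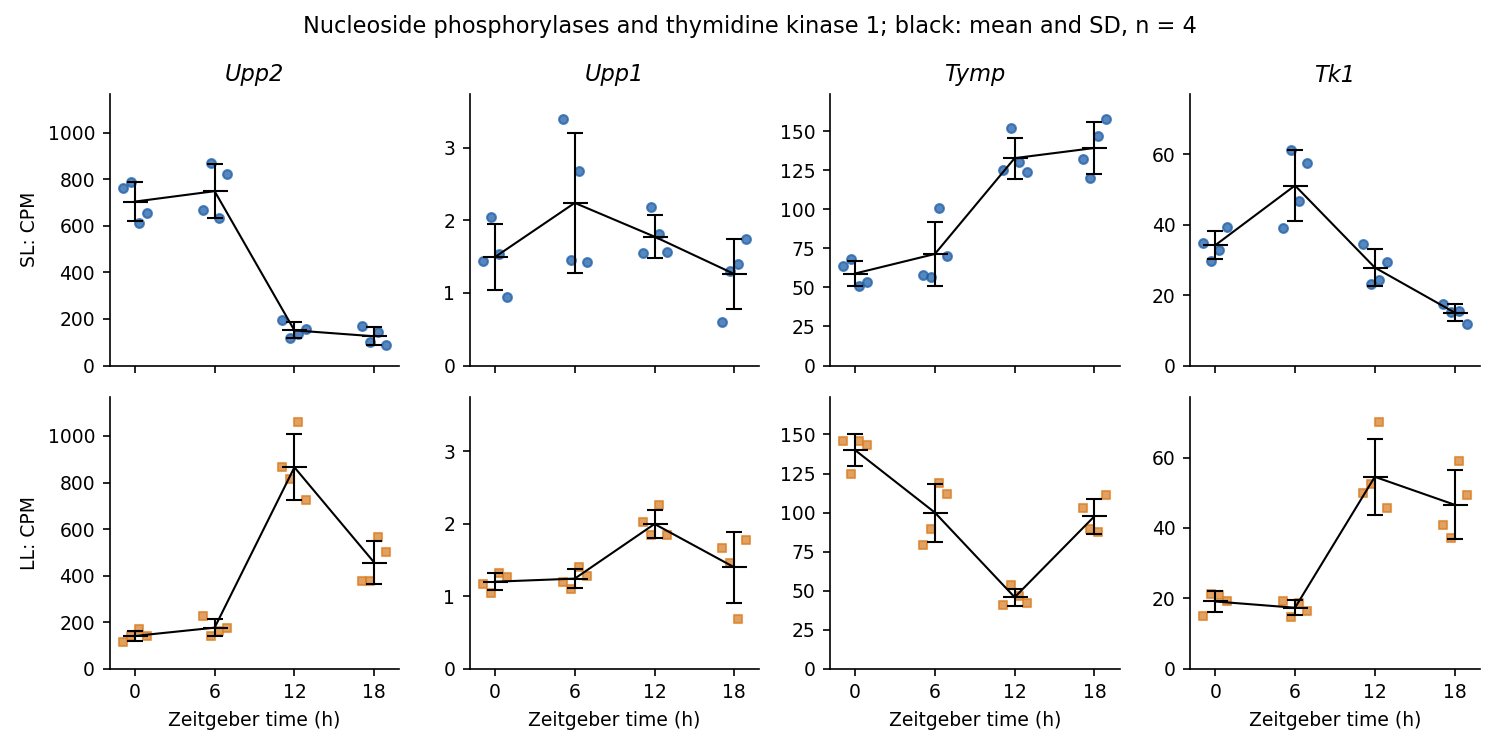
Levels in CPM of Upp2, Upp1, Tymp and Tk1 against zeitgeber time in h, SL livers in the upper row and LL livers in the lower row; points are livers, the black line joins means with SD (n = 4), and each gene has its own vertical axis from 0. Tymp was lowest at ZT0 in SL, at 58.9 CPM, and at ZT12 in LL, at 45.8 CPM. In LL it was at 100 CPM at ZT6 and 97.5 CPM at ZT18, while Upp1 stayed under 4 CPM.

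Downstream of uracil, the 4 genes of ring reduction, ring opening, beta-amino acid formation and beta-aminoisobutyrate use had group means that varied little. The highest group mean exceeded the lowest by 1.06 to 1.23 times in these 4 genes, against 6.9 times in Upp2. The interaction was called in 2 of 4, Dpyd and Upb1, with 32.7% of all tested genes called (edgeR), and nothing is read from so few genes. Time of day was called in none of the 4 in SL (adjusted p from 0.264 to 0.827) and in none in LL (adjusted p from 0.0627 to 0.824), where 19.1% and 18.3% of all tested genes were called by edgeR. At an unadjusted p under 0.05 the count was 0 in SL and 1 in LL, against 30.6% and 31.7% of all tested genes. DESeq2 called 0 in SL and 1 in LL (Upb1, adjusted p = 0.0267), and both limma fits called 0.

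**Figure D3:**
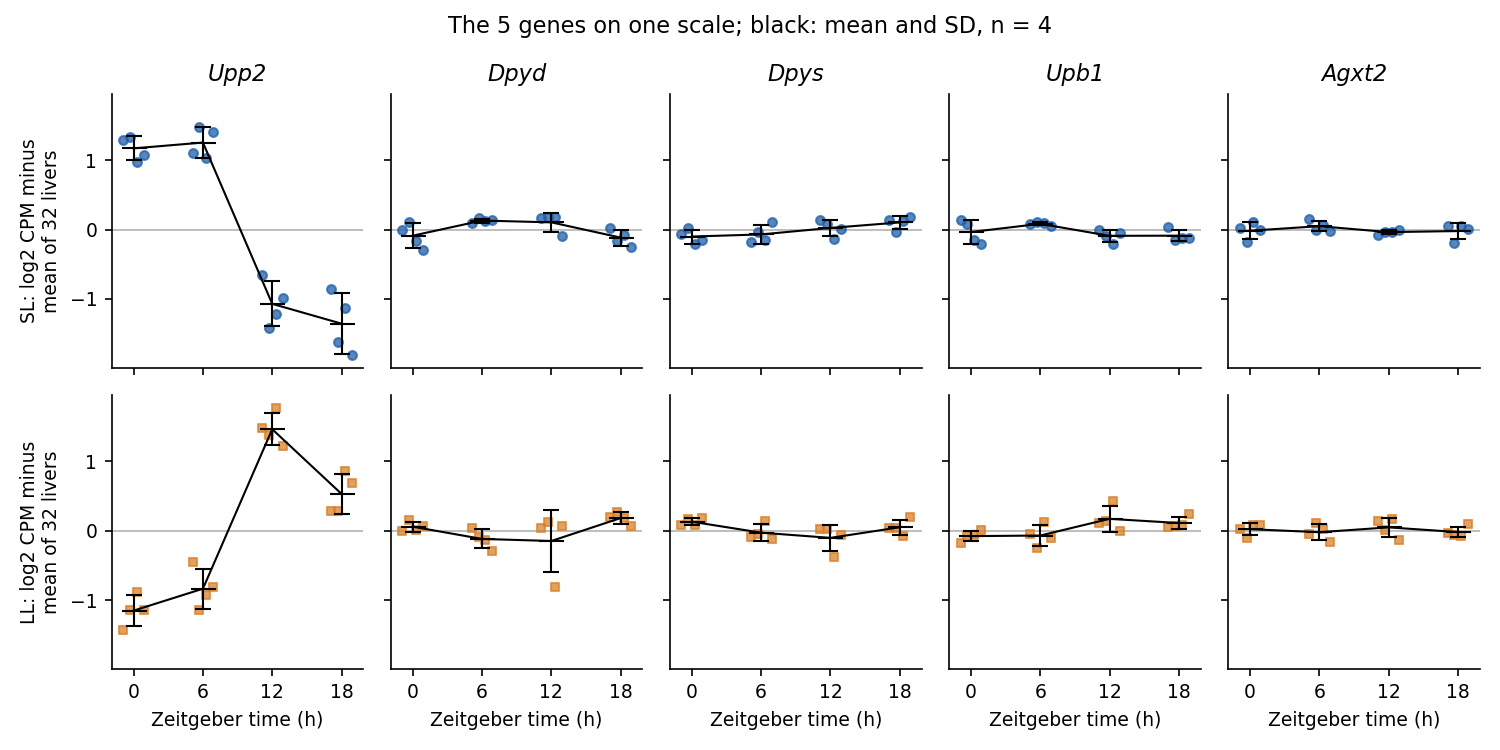
Log2 CPM of each gene minus its own mean over 32 livers, against zeitgeber time in h, SL livers in the upper row and LL livers in the lower row, all panels on the same vertical axis; points are livers and the black line joins means with SD (n = 4). Upp2 spans 6.9 times between its extreme group means while the other 4 genes span 1.06 to 1.23 times, and the low Dpyd point at LL ZT12 is replicate 3.

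Dpyd (ENSMUSG00000033308), the enzyme that also inactivates fluorouracil, lies on chromosome 3 from 118562129 to 119432924, plus strand, and averaged 614 CPM. At ZT0 it measured 604, 656, 541 and 497 CPM in SL livers, against 605, 680, 614 and 634 CPM in LL livers. At ZT6 it measured 650, 681, 660 and 668 CPM in SL livers, against 626, 570, 555 and 496 CPM in LL livers. The ZT6 groups did not overlap, SL being higher, and the ZT0 groups did. At ZT12 it measured 682, 686, 685 and 567 CPM in SL livers, against 623, 661, 346 and 635 CPM in LL livers. At ZT18 it measured 617, 541, 578 and 512 CPM in SL livers, against 697, 736, 691 and 637 CPM in LL livers, all of them above the SL livers. The interaction of Dpyd was called (adjusted p = 0.035, edgeR), while its log2 differences of -0.14 ± 0.13, 0.24 ± 0.13, 0.21 ± 0.13 and -0.30 ± 0.13 at ZT0, ZT6, ZT12 and ZT18 were not called at any single time (adjusted p from 0.149 to 0.551).

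Results for Dpyd turned on LL ZT12 replicate 3, at 346 CPM, where the other 3 livers of that group had 640 ± 21.2 CPM (SD, n = 3). Without that library the adjusted p of the interaction was 0.00103 and time of day was called in SL (0.0191) and in LL (0.0304, edgeR). The differences at ZT6 (0.26, adjusted p = 0.0185) and ZT18 (-0.31, adjusted p = 0.00753) were then called as well, while the difference at ZT12 was 0.04 (adjusted p = 0.849), against 0.21 with the library. The counts over all genes for these first 3 tests were also larger in that fit, at 39.1% for the interaction, 27.1% for time of day under SL and 21.4% under LL. At ZT6 and ZT18 they were larger too, at 21.1% and 13.6%, against 15.3% and 9.21% with the library. The waves of Dpyd then had amplitudes of 0.163 under SL and 0.156 under LL. Their peaks were at 8.5 ± 1.04 h under SL and 17.8 ± 0.84 h under LL. The interaction call was lost without SL ZT6 replicate 2, SL ZT12 replicate 1 or 2, SL ZT18 replicate 2 or 4, LL ZT6 replicate 3 or 4 or LL ZT18 replicate 1 (adjusted p from 0.0502 to 0.0676).

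Dpys (ENSMUSG00000022304), on chromosome 15 from 39768487 to 39857470, minus strand, averaged 143 CPM. Single livers ranged from 123 to 161 CPM in SL and from 109 to 163 CPM in LL, where the lowest was again LL ZT12 replicate 3. Its interaction did not pass the test (adjusted p = 0.106, edgeR). At ZT0 it measured 136, 145, 123 and 128 CPM in SL livers, against 151, 160, 152 and 162 CPM in LL livers. Those groups did not overlap, yet the log2 difference of -0.23 ± 0.09 was not called over all genes (adjusted p = 0.0911, edgeR). It was called without LL ZT12 replicate 3 (adjusted p = 0.0353), a library of neither group compared. In that fit 15.6% of all tested genes were called at ZT0, against 11% with the library. The ZT12 difference was 0.12 with that library and 0.04 without it, called in neither fit. At ZT6, ZT12 and ZT18 the SL and LL ranges of Dpys overlapped.

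Upb1 (ENSMUSG00000033427) lies on chromosome 10 from 75401115 to 75441679, plus strand, inside Gucd1 on the other strand with no exon bases in common, and averaged 376 CPM. At ZT0 it measured 413, 395, 336 and 322 CPM in SL livers, against 332, 353, 356 and 377 CPM in LL livers. At ZT6 it measured 396, 402, 397 and 388 CPM in SL livers, against 361, 314, 407 and 349 CPM in LL livers. The groups overlapped at both times. At ZT12 it measured 372, 351, 323 and 360 CPM in SL livers, against 405, 411, 504 and 374 CPM in LL livers. At ZT18 it measured 383, 338, 344 and 343 CPM in SL livers, against 388, 392, 395 and 442 CPM in LL livers. At ZT12 and ZT18 every SL liver lay below every LL liver, by a narrow margin. At ZT12 Upb1 was lower in SL, with a log2 difference of -0.27 ± 0.09 (adjusted p = 0.0411, edgeR), the only call among the 4 genes at that time. The call was lost in 8 of 42 alternatives. Of these, 5 left out a library, namely SL ZT12 replicate 2 (0.0821), 3 (0.135) or 4 (0.0673), LL ZT12 replicate 2 (0.0531) or LL ZT12 replicate 3, where the difference was -0.17 and the adjusted p 0.196. The other 3 were the fit without a filter (0.0866), the replicate block (0.0525) and the fit on the compared groups alone (0.214). The interaction of Upb1 (adjusted p = 0.0231, edgeR) stayed called in all 40 alternatives, with adjusted p from 0.0056 to 0.0486.

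Agxt2 (ENSMUSG00000089678), on chromosome 15 from 10358532 to 10410153, plus strand, averaged 312 CPM and varied least. Its group means lay between 303 and 322 CPM in SL and between 308 and 323 CPM in LL, and single livers between 272 and 350 CPM. SL and LL ranges overlapped at every time. None of its contrasts was called (adjusted p from 0.486 at ZT12 to 1 on the mean over times, edgeR), and its 95% intervals at single times lay within log2 -0.25 to 0.22. Agxt2 shares 155 exon bases with Gm21973 on the same strand.

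At single times the 4 genes gave 0 calls at ZT0, ZT6 and ZT18 and 1 at ZT12 with edgeR, where 11%, 15.3%, 9.21% and 12.4% of all tested genes were called at ZT0, ZT6, ZT18 and ZT12. The 4 genes had 1, 0, 2 and 1 at an unadjusted p under 0.05 at ZT0, ZT6, ZT18 and ZT12. Over all tested genes the unadjusted shares were 23.6%, 27.5%, 21.6% and 26.3% in the same order. DESeq2 and both limma fits gave the same numbers of calls at each time. On the mean of the 4 times 0 of 4 were called (adjusted p from 0.987 to 1, with 0% of all genes called). Each other tool also called 0, and 0 had an unadjusted p under 0.05, against 5.05% of all tested genes. When LL was taken 12 h later, the interaction was called in 0 of 4 (adjusted p from 0.703 to 0.984, with 0.519% of all genes called). Here too each other tool called 0, and 0 had an unadjusted p under 0.05, against 9.84% of all tested genes.

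**Figure D4:**
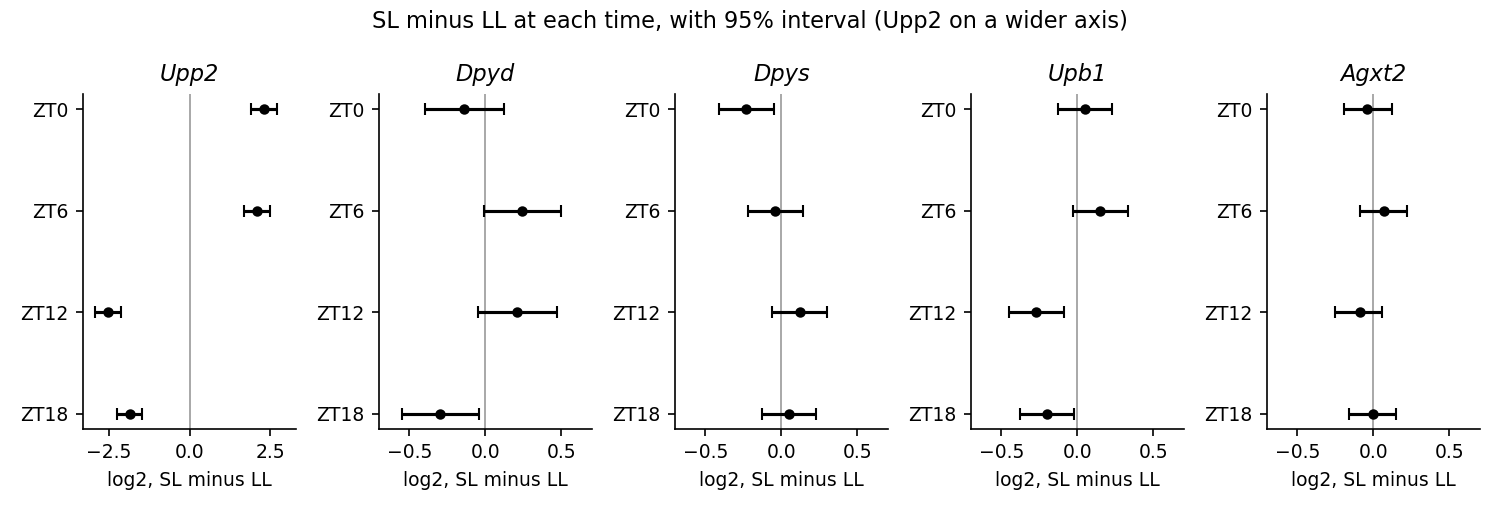
Log2 difference SL minus LL (horizontal axis) at ZT0, ZT6, ZT12 and ZT18 for each gene; points are edgeR estimates over 4 SL and 4 LL livers and bars 95% intervals, with a wider axis for Upp2. The Upp2 points lie at 2.32, 2.08, -2.52 and -1.86, while all points of the other 4 genes lie between -0.30 and 0.24.

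Amplitudes were taken from the same group means, and that of Upp2 is a description because Upp2 was chosen by its rhythm. Beside 1.72 and 1.48 for Upp2, the log2 amplitude in SL and LL was 0.156 and 0.182 for Dpyd, 0.107 and 0.123 for Dpys, 0.09 and 0.154 for Upb1, and 0.037 and 0.013 for Agxt2. Without LL ZT12 replicate 3 the LL amplitude of Dpys was 0.0809. For Agxt2, leaving out single libraries gave amplitudes from 0.0121 (without SL ZT18 replicate 2) to 0.0525 in SL and from 0.00345 (without LL ZT12 replicate 1) to 0.0429 (without LL ZT12 replicate 4) in LL. The fitted wave of Upb1 peaked at 4.82 ± 1.61 h under SL and 14.4 ± 1.17 h under LL, near the peaks of Upp2. Without LL ZT12 replicate 3 the LL amplitude of Upb1 was 0.127 and its LL peak 15.3 ± 1.18 h. The fitted wave of Dpys peaked at 15.6 ± 1.42 h under SL and 22.8 ± 1.41 h under LL. By edgeR time of day was called in neither gene, so these hours do not show a rhythm. The adjusted p was 0.396 in SL and 0.0627 in LL for Upb1, and 0.264 and 0.209 for Dpys. Across the 8 group means the correlation of log2 CPM with Upp2 was 0.82 for Upb1, 0.56 for Agxt2, 0.02 for Dpyd and -0.81 for Dpys, a description over groups that share the same libraries. Over the 32 single livers it was weaker, at 0.64 for Upb1, 0.20 for Agxt2, 0.00 for Dpyd and -0.49 for Dpys. LL ZT12 replicate 3 held the highest Upp2, Upb1 and Agxt2 levels and the lowest Dpyd and Dpys levels of the 32 livers. That library enters all of these correlations, and values without it were not computed.

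**Figure D5:**
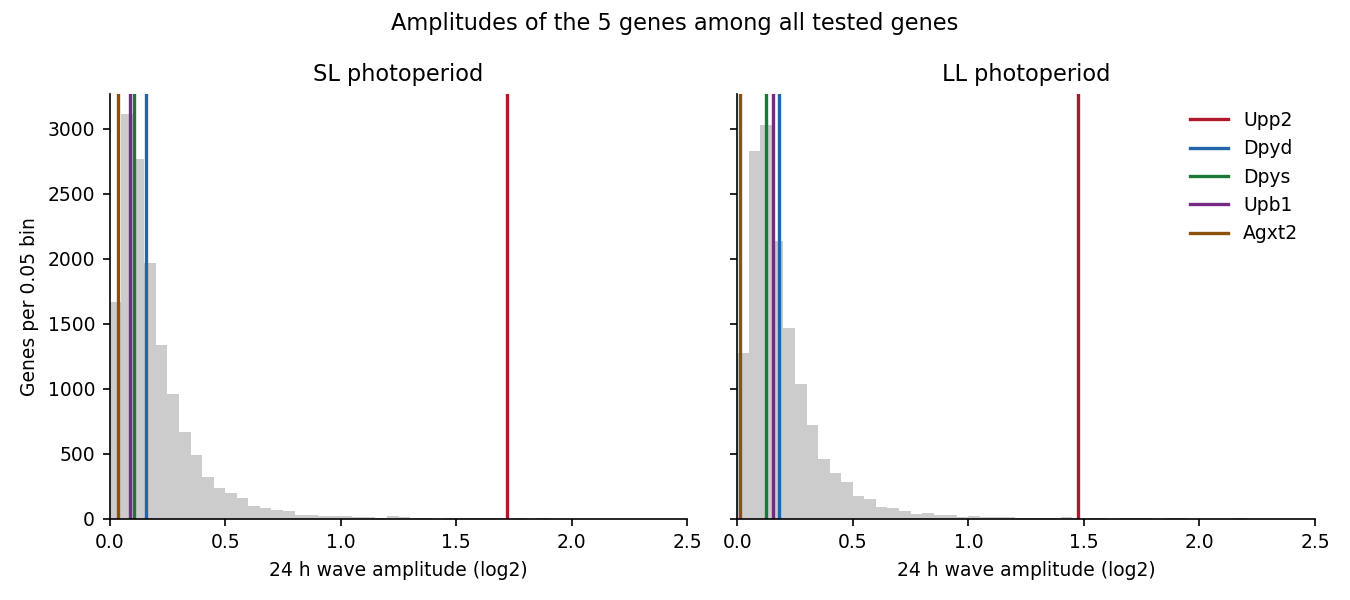
Number of genes (vertical axis) by log2 amplitude of the 24 h wave (horizontal axis, bins of 0.05) among 14456 tested genes, SL on the left and LL on the right; vertical lines mark the 5 genes, and 5 genes in SL and 2 in LL lie beyond the axis end at 2.5. Upp2 lies far to the right at 1.72 in SL and 1.48 in LL, and the other 4 lie at 0.182 or less, among the bulk of genes.

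Per length of all annotated exons, the 5 genes averaged between 38.2 and 98.6 RPKM despite their different variation. Those lengths were 7761 bases for Upp2 and 3165 for Agxt2, and may include exons not used in liver. Levels of different genes therefore compare only roughly. Agxt2 averaged 98.6 RPKM, Dpyd 69.1, Upb1 55.3, Upp2 54.3 and Dpys 38.2. Because it varied, Upp2 was at 16.2 RPKM in SL ZT18 livers, the lowest group mean of the 5 genes, and at 112 RPKM in LL ZT12 livers, the highest. The other 4 genes kept between 35.6 and 102 RPKM in all groups. In whole liver, fewer cells of a type and less RNA per cell cannot be told apart.

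The wider pyrimidine pathway and steps next to it were followed in 7 lists of 46 genes, of which 39 were tested. Some of these genes lie outside the pathway, such as Ddah1 and Ddah2 of dimethylarginine breakdown. The interaction was called in 14 of the 39 (35.9%, against 32.7% of all genes), time of day in SL in 10 (25.6%, against 19.1%) and in LL in 7 (17.9%, against 18.3%). At single times the calls were 4 at ZT0 (2 higher and 2 lower in SL), 8 at ZT6 (3 and 5), 7 at ZT12 (5 and 2) and 7 at ZT18 (5 and 2). These are 10.3%, 20.5%, 17.9% and 17.9% of the 39, against 11%, 15.3%, 12.4% and 9.21% of all genes. The ZT12 calls of Cmpk2 and Nt5c3 were lost without LL ZT12 replicate 3 (0.0772 and 0.127). The median log2 difference over the 39 genes was 0.00, -0.02, 0.05 and -0.01 at ZT0, ZT6, ZT12 and ZT18, against -0.001, -0.006, -0.007 and 0.013 over all tested genes. Median amplitudes were 0.177 in SL and 0.186 in LL. On the mean of the 4 times 0 were called by edgeR, by DESeq2 and by both limma fits. An unadjusted p under 0.05 was reached by 2 of the 39 (edgeR), against 5.05% of all tested genes.

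In de novo synthesis 3 of 5 genes had a called interaction, where 32.7% of all tested genes were called. Nothing is read from so few genes, here or in the single pyrimidine lists that follow. Cad, which codes for the first 3 enzymes of the route, measured 17.6 ± 2.68 CPM in SL livers and 11.1 ± 0.45 CPM in LL livers at ZT18 (log2 difference 0.66 ± 0.16, adjusted p = 0.00769, edgeR). Its wave peaked at 16.7 h under SL and 4.07 h under LL. Umps, which makes uridine monophosphate, varied little, with group means from 37.1 to 45.5 CPM in SL and from 37.8 to 46.8 CPM in LL (interaction adjusted p = 0.003). The third was Ctps2, a CTP synthase (adjusted p = 0.0464), whose call was lost in 24 of 40 alternatives (highest 0.0964, without SL ZT12 replicate 3, and 0.0629 without LL ZT12 replicate 3).

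Among salvage kinases and interconversion enzymes 4 of 11 tested genes had a called interaction (against 32.7% of all tested genes), Tk1 among them. Uck2, a uridine and cytidine kinase, measured 9.44 ± 0.92 CPM in SL livers and 14 ± 0.89 CPM in LL livers at ZT18 (log2 difference -0.57 ± 0.09, adjusted p = 4.49e-05, edgeR). Its wave peaked at 4.95 h under SL and 16.9 h under LL. Cmpk2, a mitochondrial nucleotide kinase, had its peak at 16.3 h under SL and 3 h under LL (interaction adjusted p = 8.4e-05). Tk1 was the only gene of the 39 called by edgeR for an interaction when LL was taken 12 h later (adjusted p = 0.0293).

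In the list of the other phosphorylases and the deaminase, Tymp and Cda were called of 3 tested, against 32.7% of all tested genes. Cytidine deaminase (Cda), which turns cytidine into uridine, was scarce at 3.29 CPM (interaction adjusted p = 0.00926, edgeR). Of 6 tested 5'-nucleotidases, which release nucleosides from their monophosphates, 4 had a called interaction, again against 32.7% of all tested genes. Nt5e, the enzyme at the cell surface, measured 37.0 ± 1.4 CPM in SL livers and 15.7 ± 3.45 CPM in LL livers at ZT12 (log2 difference 1.25 ± 0.31, adjusted p = 0.00582). Nt5c2 and Nt5c3 had smaller amplitudes, of 0.18 each in SL and of 0.11 and 0.15 in LL. Among 4 tested nucleoside transporters the smallest interaction adjusted p was 0.139, for Slc29a2, at 0.893 CPM. Slc29a3 was called without LL ZT12 replicate 4 (0.0347).

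Another list covered the wider handling of beta-alanine and beta-aminoisobutyrate, the products of Upb1, and not their use alone. Of its 8 tested genes 1 had a called interaction, Cndp1 (adjusted p = 1.83e-05, edgeR). The share over all tested genes was 32.7%. Slc6a6 was called without LL ZT12 replicate 3 (0.00176, against 0.0939 with it), a fit in which 39.1% of all tested genes were called. Carns1 was called without SL ZT0 replicate 1 (0.042). Carnosine dipeptidase 1, made from Cndp1, measured 0.939 ± 0.334 CPM in SL livers and 2.59 ± 0.889 CPM in LL livers at ZT6 (log2 difference -1.50 ± 0.31, adjusted p = 0.000745). It shares 455 exon bases with an antisense gene. Ddah1 and Ddah2, which break down the dimethylarginines that Agxt2 also uses, were not called (interaction adjusted p of 0.175 and 0.873).

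For comparison, the interaction was called in 6 of 7 tested genes of purine breakdown, against 32.7% of all genes, and the difference between pathways was not tested. Guanine deaminase (Gda) measured 78.0 ± 5.55 CPM in SL livers and 39.4 ± 8.89 CPM in LL livers at ZT6, against 34.7 ± 3.18 CPM in SL livers and 73.5 ± 6.44 CPM in LL livers at ZT18. The log2 differences were 0.99 ± 0.16 and -1.08 ± 0.16 (adjusted p of 6.08e-05 and 3.98e-05, edgeR). Urate oxidase (Uox), the most abundant of the list at 2550 CPM, peaked at 3.8 h under SL and 13.7 h under LL, close to Upp2, with amplitudes of 0.29 and 0.32. Purine nucleoside phosphorylase (Pnp) peaked at 10.9 h under SL and 19.9 h under LL.

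The 8 genes most like Upp2, by Pearson correlation of the 8 group means of log2 CPM among 11539 named genes with a mean of at least 1 CPM, were Stard5 (0.9919), Gne (0.9910), Hlf (0.9894), Gab1 (0.9891), Slc16a12 (0.9888), Ppp1r3g (0.9885), Serpina6 (0.9878) and Nceh1 (0.9850). Stard5 codes for a sterol carrier, Hlf for a clock output factor that binds the D-box, and Serpina6 for corticosteroid-binding globulin. Over the 32 single livers the correlation was 0.953 for Stard5, 0.939 for Gne, 0.920 for Serpina6 and 0.771 for Hlf. Their shapes were alike but not their sizes, since Stard5 had amplitudes of 0.36 under SL and 0.33 under LL and Serpina6 of 0.55 and 0.58. Ppp1r3g, a regulatory subunit of the phosphatase that acts on glycogen synthase, matched Upp2 in size with 1.77 in both, at a mean of 1.75 CPM. Serpina6 measured 436 ± 44.4 CPM in SL livers and 235 ± 16.8 CPM in LL livers at ZT0, and 276 ± 7.84 CPM in SL livers and 491 ± 74.8 CPM in LL livers at ZT12.

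For the other genes the same measure over 8 group means named Cdc42bpb, Bhmt2 and Slc5a3 as most like Dpyd (0.9898 to 0.9780), Mrpl36, Exog and Zfp622 as most like Dpys (0.9769 to 0.9646), Lgals1, Acot13 and Rbm25 as most like Upb1 (0.9860 to 0.9761), and Micu3, Rbm24 and mt-Tp as most like Agxt2 (0.9666 to 0.9484). Over single livers the correlations were 0.664 to 0.750 for the 3 genes like Dpyd and 0.016 to 0.228 for Dpys. They were 0.363 to 0.718 for Upb1, 0.162 to 0.555 for Agxt2 and 0.717 to 0.953 for the 8 genes like Upp2. Single-liver values contain the group differences by which the like genes were picked, so they are no second check of likeness. Those differences were largest for Upp2.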

How the data were processed

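Libraries were made from polyadenylated liver RNA by a strand-preserving protocol, per the labels. GRCm38 (mm10), STAR 2.7.2b, featureCounts 1.6.2 and bcl2fastq 2.20.0 are listed in the submitters' processing notes. How strand and reads with several matches were treated, and which annotation served for counting, is not given in the sources used here. Whole-number read counts for 55471 genes, not normalized, were deposited by the authors, with a second table on the log2 scale for 13432 genes. These deposited log2 values lay within 0.0213 of log2 CPM from the counts and served as an alternative.

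Counts were scaled by trimmed means of M values and filtered by group (filterByExpr). The 14456 genes left were fitted with edgeR 4.0.16 (quasi-likelihood F-test, R 4.3.3) with 1 mean for each of the 8 groups over 32 libraries, and p-values were adjusted by Benjamini-Hochberg over all of them at 0.05. Groups came from each sample's own labels. Waves used ZT0 minus ZT12 and ZT6 minus ZT18 of group means of log2 CPM (prior count 2). RPKM used the joined length of all exons annotated for a gene in GENCODE M21, whether or not liver uses them. The 5 genes, the lists and the tests were chosen with earlier results of these data known. Named genes were the 5, the 8 genes most like Upp2 and 3 most like each other gene, and up to 3 genes per list by smallest interaction p, with Upp1. Alternatives were DESeq2 1.42.0, limma 3.58.1, other scalings and filters, a replicate block, smaller fits and each library left out, with those for the named pathway genes and 3-degree tests added after seeing the data. The procedure was tested on simulated counts. Labels name separate mice per group but no cage or extraction batch, so p-values measure the spread between these samples. No 2 libraries of a group agreed within counting noise. Promoter sequences and start sites came from RefSeq, GRCm38.p6.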

Additional observations from a re-analysis of the deposited data

Results flagged for a closer look

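In 5 of 40 sets of 4 livers (5 genes in 8 groups) a single liver stood apart from the other 3 by more than Dixon's 95% limit, which chance gives in about 1 in 20 sets. For Dpyd these were SL ZT12 replicate 4 at 567 CPM and LL ZT12 replicate 3 at 346 CPM. For Upb1 they were SL ZT18 replicate 1 at 383 CPM and LL ZT18 replicate 4 at 442 CPM. For Agxt2 it was SL ZT18 replicate 2 at 272 CPM. None of the Upp2 groups was among them.

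The photoperiod by time interaction was called for Dpyd (adjusted p = 0.035) and for Upb1 (adjusted p = 0.0231, edgeR), where 32.7% of all tested genes were called. Group means differed by at most 1.23 times in Dpyd and 1.2 times in Upb1. The Dpyd call was lost in 8 fits that each left out 1 library (adjusted p from 0.0502 to 0.0676, edgeR).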

How the results depend on the processing

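Over all genes, DESeq2 and the fit without a filter gave 6 and 9 calls on the mean of 4 times, against 0, and 228 and 250 for the interaction with LL taken 12 h later, against 75. Leaving out single libraries gave 0 to 3 and 55 to 151 for these counts, the highest without LL ZT12 replicate 3, with 3 also reached without LL ZT18 replicate 3. Fits on the compared groups alone called 1658 genes for time of day in LL, against 2650, and 739 at ZT12, against 1799. Over all alternatives Upp2 kept its sign at every time, with log2 differences of 2.23 to 2.42 at ZT0, 1.99 to 2.23 at ZT6, -2.68 to -2.41 at ZT12 and -2.05 to -1.73 at ZT18. Small differences near 0 changed sign when a library was left out, namely Dpys at ZT6 (-0.09 to 0.02), Upb1 at ZT0 (-0.01 to 0.11) and Agxt2 at ZT0 (-0.08 to 0.01). The ZT18 difference of Dpyd was called in the fit on those groups alone (adjusted p = 0.019). Time of day in LL was called for Upb1 without LL ZT6 replicate 3 (0.0281) or LL ZT12 replicate 4 (0.0267). Exact two-sided permutation tests over the 8 livers at a time, whose smallest p is 0.0286, reached that value for Dpyd at ZT6 and ZT18, Dpys at ZT0 and Upb1 at ZT12 and ZT18, before any adjustment. The causes were not tested. With the replicate block the interaction was called in 4702 genes, with an adjusted p of 0.0223 for Dpyd and 0.0309 for Upb1. Replicate numbers do not pair the mice. Deviations of same-numbered libraries had a mean correlation of -0.000292 over 112 pairs, and 5 of 32 libraries correlated best with their own number. In the 7 pyrimidine lists 14 genes had a called interaction, and 13 to 16 over all alternatives, which were not compared gene by gene. Genes near 1 CPM, Upp1 among them, rest on few reads and are limited by depth.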
